A study of Mus musculus with 2 samples.

Results

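Arid1b peaks at the ends of long noncoding RNA (lncRNA) genes, away from the ends of protein-coding genes, numbered 399 of the 8318 peaks in the deposited list (4.80%, exact binomial 95% interval 4.35 to 5.28). A peak was taken when its summit, the base of highest signal, lay within 1 kb of either end of a gene that the mm10 RefSeq table calls lncRNA and more than 1 kb from every end of a protein-coding gene. The choice used position only and no signal value. The list compares 1 library of Arid1b chromatin immunoprecipitation with sequencing (ChIP-seq) with 1 library of input chromatin taken without antibody. Both came from primary mesenchymal cells of the mouse molar, from wild-type C57BL/6 animals. The cells were taken from the root-forming tip of first mandibular molars between postnatal day 3.5 and 7.5 and grown with 10% serum. How many animals were pooled is not stated in the labels. Neither library was replicated, so no test between groups was possible and the values describe these 2 libraries. The series title names Arid1a and its design text names Gli1-CreER;Arid1a fl/fl mice, whereas the sample labels name Arid1b and wild-type cells.

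Arid1b is the large DNA-binding subunit found in a form of the BAF complex, a SWI/SNF machine that uses ATP to slide or evict nucleosomes at promoters and enhancers. LncRNAs are transcripts without a long open reading frame, and many start close to the promoter of a coding gene and are transcribed from the opposite strand. Some act on neighbouring genes, some carry small RNAs in their introns or exons, and for many no function is known, so a peak at a lncRNA end does not show that the lncRNA is made in these cells. RNA was not measured here.

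The sequences at the starts of these lncRNAs varied widely in CpG content, and 5 of the 300-base start windows are shown as examples of CpG-rich and CpG-poor starts, none of them from the richest. Each runs from 250 bases before to 50 bases after an annotated start, 5′ to 3′ on the strand of the lncRNA, from RefSeq (GRCm38.p6, the assembly that mm10 names), with CpG dinucleotides in capitals. Gm10910, on the plus strand at chr9:31280679-31280978, lies wholly inside the strongest of the 399 peaks and holds 24 CpG. Chaserr, on the minus strand at chr7:73558346-73558645, had 5 peaks at its ends and holds 30. Gm15524, on the minus strand at chr12:56694718-56695017 inside the tooth regulator gene Pax9, holds 9. Mir99ahg, named as a miRNA host gene, on the plus strand at chr16:77329078-77329377, holds 8. Gm34455, on the minus strand at chr17:26504298-26504597 near the phosphatase gene Dusp1, holds 2.
Gm10910: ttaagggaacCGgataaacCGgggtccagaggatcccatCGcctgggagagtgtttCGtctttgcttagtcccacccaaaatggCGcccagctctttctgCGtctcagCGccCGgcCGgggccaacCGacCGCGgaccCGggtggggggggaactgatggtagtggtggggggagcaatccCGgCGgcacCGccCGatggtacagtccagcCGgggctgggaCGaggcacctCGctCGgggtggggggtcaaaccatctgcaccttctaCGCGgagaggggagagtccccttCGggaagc
Chaserr: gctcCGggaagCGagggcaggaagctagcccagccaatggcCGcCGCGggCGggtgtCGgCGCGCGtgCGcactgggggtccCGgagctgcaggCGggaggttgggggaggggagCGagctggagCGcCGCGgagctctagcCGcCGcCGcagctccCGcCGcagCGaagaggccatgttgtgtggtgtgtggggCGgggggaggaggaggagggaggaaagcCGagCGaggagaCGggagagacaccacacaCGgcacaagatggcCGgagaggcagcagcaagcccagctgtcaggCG
Gm15524: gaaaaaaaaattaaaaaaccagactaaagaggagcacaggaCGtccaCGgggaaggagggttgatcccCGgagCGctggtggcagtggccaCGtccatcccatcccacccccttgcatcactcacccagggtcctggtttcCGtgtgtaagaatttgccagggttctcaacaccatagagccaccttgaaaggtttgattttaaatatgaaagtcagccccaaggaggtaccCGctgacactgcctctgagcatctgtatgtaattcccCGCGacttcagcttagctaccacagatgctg
Mir99ahg: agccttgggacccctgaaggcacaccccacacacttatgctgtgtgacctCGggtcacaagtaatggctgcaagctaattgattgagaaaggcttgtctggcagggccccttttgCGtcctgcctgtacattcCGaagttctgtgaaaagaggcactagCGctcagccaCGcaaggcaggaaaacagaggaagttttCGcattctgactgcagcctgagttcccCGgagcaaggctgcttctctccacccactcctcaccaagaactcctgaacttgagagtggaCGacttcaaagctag
Gm34455: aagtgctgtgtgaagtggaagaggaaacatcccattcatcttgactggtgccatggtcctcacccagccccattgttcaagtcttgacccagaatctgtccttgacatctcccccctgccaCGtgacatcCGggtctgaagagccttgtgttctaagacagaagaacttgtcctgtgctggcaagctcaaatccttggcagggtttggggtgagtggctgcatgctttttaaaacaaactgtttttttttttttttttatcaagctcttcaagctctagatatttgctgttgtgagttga

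Few lncRNA genes carried such a peak. The 399 peaks lay at 323 of the 12731 lncRNA genes in the table (2.54% of all lncRNA genes). A summit within 1 kb of an end was present at 21.5% of protein-coding genes. A further 691 summits lay within 1 kb of a lncRNA end and of a coding end at once and are not among the 399. With them, 866 lncRNA genes (6.8%) had a summit at an end. Of the 323 genes, 257 had 1 peak, 49 had 2, 14 had 3, Hottip had 4, and Chaserr and Malat1 had 5 each. Peaks of a gene are not necessarily separate sites. With peaks within 500 bp merged, 289 peaks at 280 genes were left. In 12 cases a peak served the ends of 2 lncRNA genes, as at Hotairm1 and Hotairm2.

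Antisense and other named lncRNAs carried these peaks more often than models with a Gm number. The shares of miRNA and snoRNA hosts rest on few genes. Of 10127 lncRNAs with a Gm number, 187 had such a peak (1.85%, exact binomial 95% interval 1.59 to 2.13), and of 1788 Riken clones 91 did (5.09%, 4.12 to 6.21). Of 217 genes named as antisense or opposite-strand, 16 did (7.37%, 4.27 to 11.7). By their names, hosts of miRNAs had 2 of 14 (14.3%, 1.78 to 42.8) and hosts of small nucleolar RNAs (snoRNAs) 3 of 18 (16.7%, 3.58 to 41.4). Models with a LOC or accession-like name had 7 of 405 (1.73%, 0.698 to 3.53), and the other named lncRNAs 17 of 162 (10.5%, 6.23 to 16.3). The 17 include Thap8 and Rnf227, whose symbols are those of protein families. The difference between classes was not tested, since genes of 1 library are not replicates.

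The signal at lncRNA ends lay, at the median, between that at coding ends and that of peaks at neither kind of end, and the 3 groups overlapped widely. The enrichment the authors list for each peak, a linear ratio of ChIP to input, had a median fold of 3.75 (quartiles 3.26 and 4.36) over the 399 peaks, and ranged from 1.53 to 10.3. It was 3.82 (3.34 and 4.34) over the 4974 peaks at coding ends and 3.61 (3.20 and 4.13) over the 2945 peaks at neither. Of the 399, 43 (10.8%, 7.91 to 14.2) reached a fold of at least 5, against 10.2% of all 8318 peaks, a share inside that interval, and 8.69% (7.70 to 9.77) of peaks at neither. The number of ChIP fragments piled up on the summit, worked out from fold and p-value, was 38 at the median. For 337 of the 399 peaks (84.5%) the exact Poisson 95% interval of the fold included the median of all peaks, against 85.5% of all 8318 peaks. Most peaks of either set could thus not be told apart from that median at this depth. Wide peaks of at least 1 kb made up 6.77% of the 399 (4.51 to 9.69), 2.90% of coding-end peaks (2.45 to 3.40) and 6.86% of peaks at neither (5.97 to 7.83). The widest of the 399, at Gm31365 inside Tnrc18, spanned 4997 bp with a fold of 5.59.

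**Figure D1:**
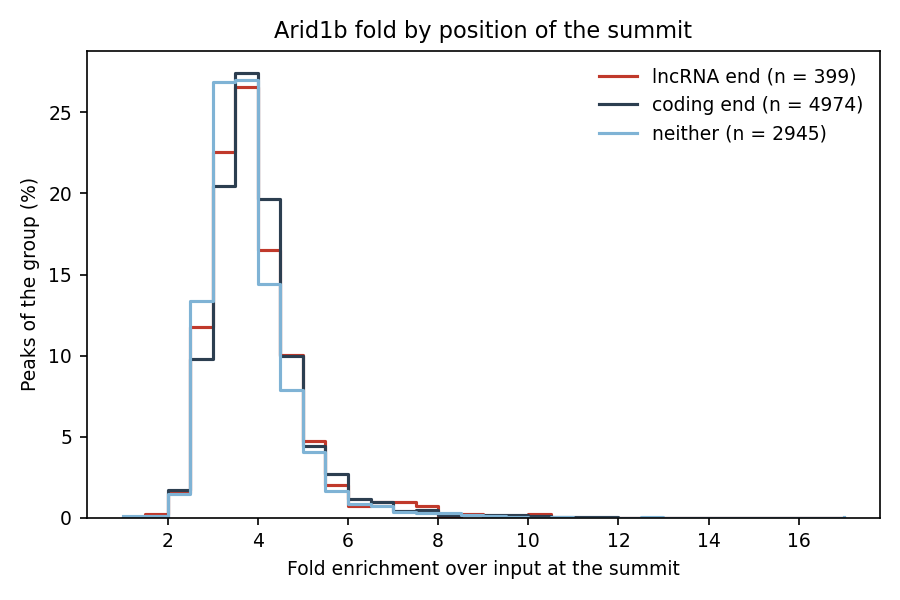
Distribution of the authors' fold enrichment (x axis, bins of 0.5) as the percentage of peaks of each group (y axis) for peaks at lncRNA ends, coding ends and neither. The 3 curves overlie each other around medians of 3.75, 3.82 and 3.61.

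Most of the peaks lay at the end where the lncRNA starts. Strand was known for the nearest lncRNA of 316 peaks, and 260 of these (82.3%, 77.6 to 86.3) lay nearer to its start and 56 nearer to its far end. At coding ends 3861 of 4064 peaks with a known strand (exact binomial 95% interval 94.3 to 95.7%) lay nearer to the start. The other 83 lncRNA-end peaks had no strand in the table used. Median fold was 3.73 at starts (n = 260) and 3.73 at far ends (n = 56), while a fold of at least 5 was reached by 23 start peaks (8.85%) and 10 far-end peaks (17.9%), a difference that was not tested. The strongest far-end peaks were at 1700039I01Rik (8.67), Gm46910 (7.95) and Gm11772 (7.52).

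A majority of the peaks lay inside a protein-coding gene, where the lncRNA nearly always ran antisense. Inside a coding gene lay 220 summits (55.1%, 50.1 to 60.1), against 69.3% (67.6 to 71.0) of the peaks at neither kind of end. Where both strands were known, the lncRNA and the coding gene were on opposite strands at 146 of 153 peaks (95.4%, 90.8 to 98.1). The annotation itself has this bias: of 1920 lncRNA starts inside a coding gene and away from its ends, 1727 (89.9%, 88.5 to 91.3) run on the opposite strand.

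Many of the interior peaks were close to a coding start within the gene body, which the rule on outer gene ends does not see. Of 390 peaks on chromosomes with start sites in the table, 120 (30.8%, 26.2 to 35.6) had an annotated coding start within 1 kb. By the rule all 120 had to lie inside a coding gene, and they were 54.5% of the 220 that did. Among peaks at neither kind of end, 687 of 2835 (24.2%, 22.7 to 25.9) had a coding start within 1 kb. That share is over peaks inside and outside coding genes, as the 30.8% is and the 54.5% is not. Where a lncRNA start and a coding start both lay within 1 kb of the summit, they were on opposite strands at 97 of 101 peaks (96.0%, 90.2 to 98.9). Median fold was 3.72 with such a coding start (n = 120) and 3.75 without (n = 270). Some coding genes, such as Tbx3 and Otx1, have no start in the table, so the 30.8% and 24.2% are minimums. Here and below, the group without a nearby coding start includes peaks inside such genes. Away from coding ends, 200 of 7993 lncRNA starts in the table (2.50%) had a coding start within 1 kb. This share counts starts at gene ends and measures from the start. The 30.8% counts peaks and measures from the summit, so the shares are not directly comparable. How far these 120 peaks belong to the lncRNA or to the coding start cannot be told apart.

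Summits lay upstream of the lncRNA start, on it and downstream of it, with no excess in the window around the start itself. Over the 265 peaks with an annotated lncRNA start within 1 kb, 93 (35.1%) lay more than 250 bp upstream, 131 (49.4%) lay 50 bp or more downstream, and 41 (15.5%, 11.3 to 20.4) lay in the 300-base start window, which makes up 15% of the span. Without a coding start nearby, 60.4% of 164 summits lay downstream and 26.2% upstream, with a median position 136 bp downstream. With a coding start nearby, 31.7% of 101 lay downstream and 49.5% upstream, with a median 247 bp upstream. At coding starts 72.5% of 3834 summits lay downstream, with a median of 190 bp. The start window held 14.6% (13.5 to 15.7) of them, so coding starts had no excess there either. Differences between these groups were not tested.

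**Figure D2:**
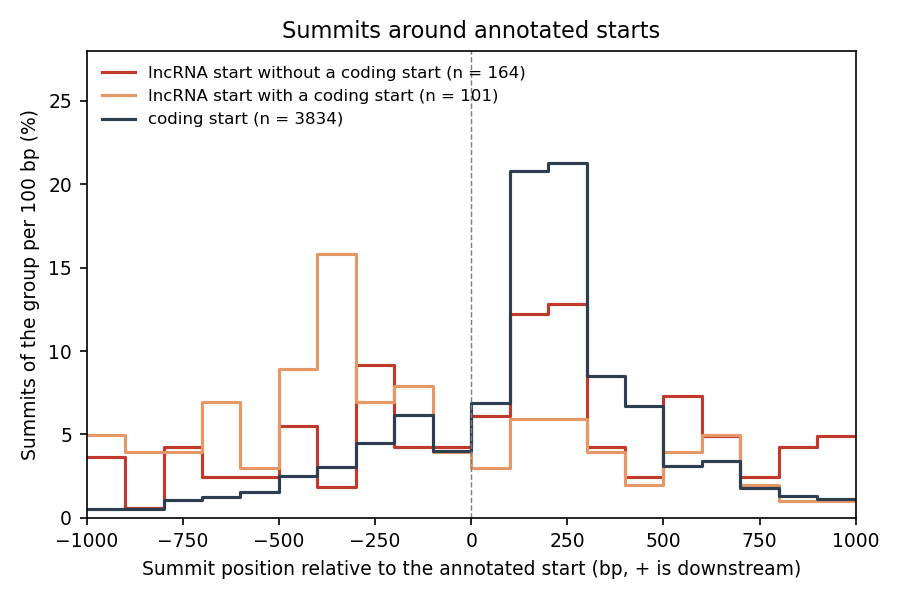
Position of summits relative to the nearest annotated start (x axis, bp, positive is downstream on the strand of that gene), as the percentage of summits of each group per 100 bp (y axis). Coding-start summits and lncRNA-start summits without a nearby coding start are most frequent 100 to 300 bp downstream, and lncRNA-start summits with a nearby coding start are most frequent 300 to 400 bp upstream.

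Starts of lncRNAs that carried a peak were rich in CpG. A start window was taken when a summit lay within 1 kb of the start, so it need not lie under the peak. Over the 265 peaks with such a start, the window overlapped the peak in 108 cases and lay wholly inside it in 24. Over the 223 distinct start windows of these lncRNAs the median was 19 CpG per 300 bases (quartiles 10 and 29.5), against 4 (2 and 8) over all 11588 lncRNA start windows and 26 (19 and 33) over 3299 coding start windows with a coding-end peak. At least 10 CpG were present in 75.8% of the 223 and 19.1% of all lncRNA windows. Windows with a coding start within 1 kb of the summit held a median of 27.5 (n = 86) and those without one held 14 (n = 137). Among the printed windows, Chaserr and Gm10910 lie above the median of the 223, and Gm15524, Mir99ahg and Gm34455 lie below it.

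**Figure D3:**
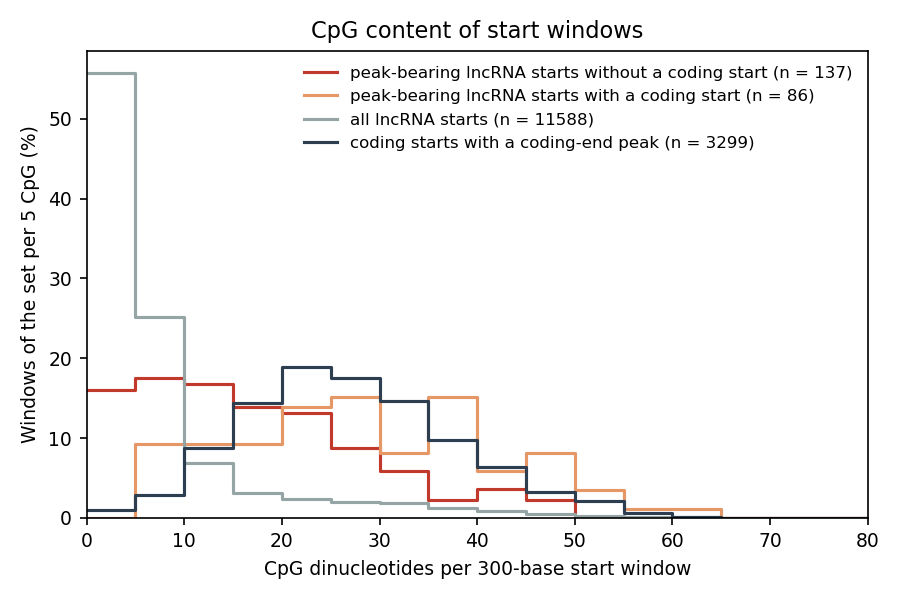
CpG dinucleotides per 300-base start window (x axis, bins of 5) as the percentage of windows in each set (y axis). Windows of all lncRNA starts pile up below 10, and those of lncRNAs with a peak spread to higher counts, with medians of 14 without and 27.5 with a nearby coding start.

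GC-rich motifs were more frequent in the start windows of lncRNAs with a peak than in all lncRNA windows, and the TATA box was less frequent. The GC box GGGCGG, the site type of Sp and Klf factors, was in 55.2% of the 223 windows (48.4 to 61.8), 16.3% of all lncRNA windows and 75.8% of coding start windows with a coding-end peak. The ETS motif CCGGAAG was in 9.87% (6.29 to 14.6) against 3.89% of all lncRNA windows. The TATA box TATAAA was in 6.28% (3.47 to 10.3) against 15.5%. The AP-1 motif TGANTCA was in 8.07% (4.85 to 12.5) against 9.31%, the CCAAT box CCAAT in 31.4% against 36.0%, and the TEAD motif GGAATG in 17.0% against 16.6%. The TEAD motif was in 24.1% of the 137 windows without a nearby coding start (17.2 to 32.1) and in 5.81% of the 86 windows with one (1.91 to 13.0). In the same order the GC box was in 43.8% and 73.3%, AP-1 in 10.2% and 4.65% and the TATA box in 8.03% and 3.49%. ETS was in 11.7% and 6.98%, and CCAAT in 30.7% and 32.6%. The 2 sets also differed in median GC content, 57.3% and 68.2%. Median GC content was 61.3% over the 223 windows and 48.3% over all lncRNA windows. Motif shares were not adjusted for base composition, and none of these differences was tested. Motifs were sought on both strands and could overlap each other, and a match is a description and not a binding site.

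Most of the 399 peaks lay at lncRNAs without a descriptive name. Of the 399, 218 were at models with a Gm number, 116 at Riken clones and 7 at LOC or accession-like models. The same held for the 10 strongest peaks, all but that at Chaserr. The highest, at chr9:31280545-31281861, reached a fold of 10.3 (exact Poisson 95% interval 8.41 to 12.5) at the start of Gm10910. That lncRNA lies on the same strand inside Prdm10, a zinc-finger transcription factor gene, and an annotated Prdm10 start lay 465 bp from the summit. A second peak of 3.51 lay 822 bp upstream of the lncRNA start. The second, at chr1:63248132-63249455, reached 8.67 (6.97 to 10.7) at the far end of 1700039I01Rik, inside the imprinted gene Zdbf2. Next came a peak at chr5:41765080-41766307 with 7.95 (6.29 to 9.93) at the far end of Gm46910, 1531 bp from Nkx3-2, a homeobox gene of skeletal development.

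A run of strong peaks followed along Bahcc1, which encodes a chromatin protein with a BAH domain. 2900052L18Rik, 1891 bp outside Bahcc1, had 7.73 (6.22 to 9.50), and Gm11772, antisense inside it, had 7.52, 6.78 and 4.04. The remaining peaks among the 10 highest were at Gm20467 near the homeobox gene Nkx2-3 (7.44), A630026N12Rik inside Gabpb1 (7.23), Gm31068 (7.13, with the forkhead gene Foxk1 nearest at 33853 bp), Gm17801 (7.11) and Chaserr (6.84). At A630026N12Rik the summit lay 39 bp from an annotated Gabpb1 start, a subunit gene of an ETS-family complex. The lowest were at Gm33862 (1.53), Gm52095 (2.16) and Gm3230 (2.23). Gm33862 had an expected input level of 138 against the most common expected level of 8.68, and its pileup of 211 was the highest of the 399.

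Chaserr and Malat1 carried 5 peaks each. Chaserr lies next to Chd2, a gene for a chromatin remodeller, and is known for restraining Chd2 expression. Around its start at the high-coordinate end were 3 peaks, with folds of 6.84 (5.47 to 8.45) at chr7:73555720-73558334, 4.23 (3.05 to 5.73) and 3.41 (2.36 to 4.77). At its far end were 2 weaker peaks of 3.30 and 3.20, which lie inside Chd2, and Chd2 had a peak at its own end as well. The 5 peaks of Malat1, an abundant nuclear lncRNA, had folds of 4.74, 4.46, 4.11, 3.60 and 3.51, with 3 of them nearer to its far end. All 5 intervals include the median of all peaks, 3.72.

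The lncRNAs with 3 peaks each numbered 14, and most of their folds were near the median of all peaks. Beside Gm11772, they included 2410022M11Rik inside the zinc-finger gene Zmym5 (5.06, 4.54 and 3.51) and Gm40147 near the neural bHLH gene Neurog2 (5.03, 4.23 and 2.79). Gm34978 near Kiz had 4.96, 3.75 and 3.43, and A630001O12Rik, with Tomm20 nearest, had 4.24, 3.49 and 3.40. Gm31546 near the corepressor gene Irf2bp2 had 4.23, 3.20 and 3.18, and Gm40491, with its paralog Irf2bpl nearest, had 3.82, 3.10 and 2.89. C230034O21Rik inside the cadherin gene Fat4 had 3.72, 3.01 and 2.36, and Gm34455 near Dusp1 had 3.25, 3.20 and 3.10. The other 5, Otx2os1, Gm31530, 5730488B01Rik, Gm30134 and Gm11538, are described with their neighbours.

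Antisense and opposite-strand lncRNAs had 22 peaks at 16 genes, all with a protein-coding partner of the same root name. In 13 of the 22 the summit lay inside the partner, and in 7 it lay within 1 kb of an annotated start of the partner. The partner had a peak at its own end for 6 of the 16, where 21.5% of all coding genes had one. Both strands were known for 7 of the 16 pairs and were opposite in all 7.

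The strongest antisense peaks were at Tbx3os1, Sp3os and Oip5os1. Tbx3os1, named for the T-box gene Tbx3 in which its summit lies, had 6.20 (4.74 to 7.96) at chr5:119671462-119673364. Sp3os had 6.09 (4.65 to 7.85), with the summit 98 bp from an annotated start of Sp3, a gene of the GC-box binding Sp family. Zbtb11os1 had 4.73 and 4.03 inside Zbtb11, and Otx2os1 had 4.54, 3.51 and 3.26 outside Otx2, a head homeobox gene. Zeb2os (3.65) and Hand2os1 (3.61) were near the median of all peaks, and both Zeb2 and Hand2 had a peak at their own ends. Hk1os had 3.82 and 3.59 inside the hexokinase gene Hk1, with annotated Hk1 starts 56 and 434 bp away. Hoxb5os had 4.44, and Hoxb3os had 3.30 and 2.88 at its far end. The remaining genes were Rab10os (4.17), Zfp652os (3.76), Gad1os (3.51) and Dlx6os2 (3.10), the last inside the annotated span of the homeobox gene Dlx6.

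The names do not always mark an overlap. Oip5os1, also called Cyrano and known for destroying a microRNA, had 5.16 (3.85 to 6.79) at its start, 15155 bp from Oip5 and nearer to Chp1. Epb41l4aos (4.44) lay outside Epb41l4a, at 1270 bp. Of the 22 peaks, 19 had the namesake as the nearest coding gene.

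**Figure D4:**
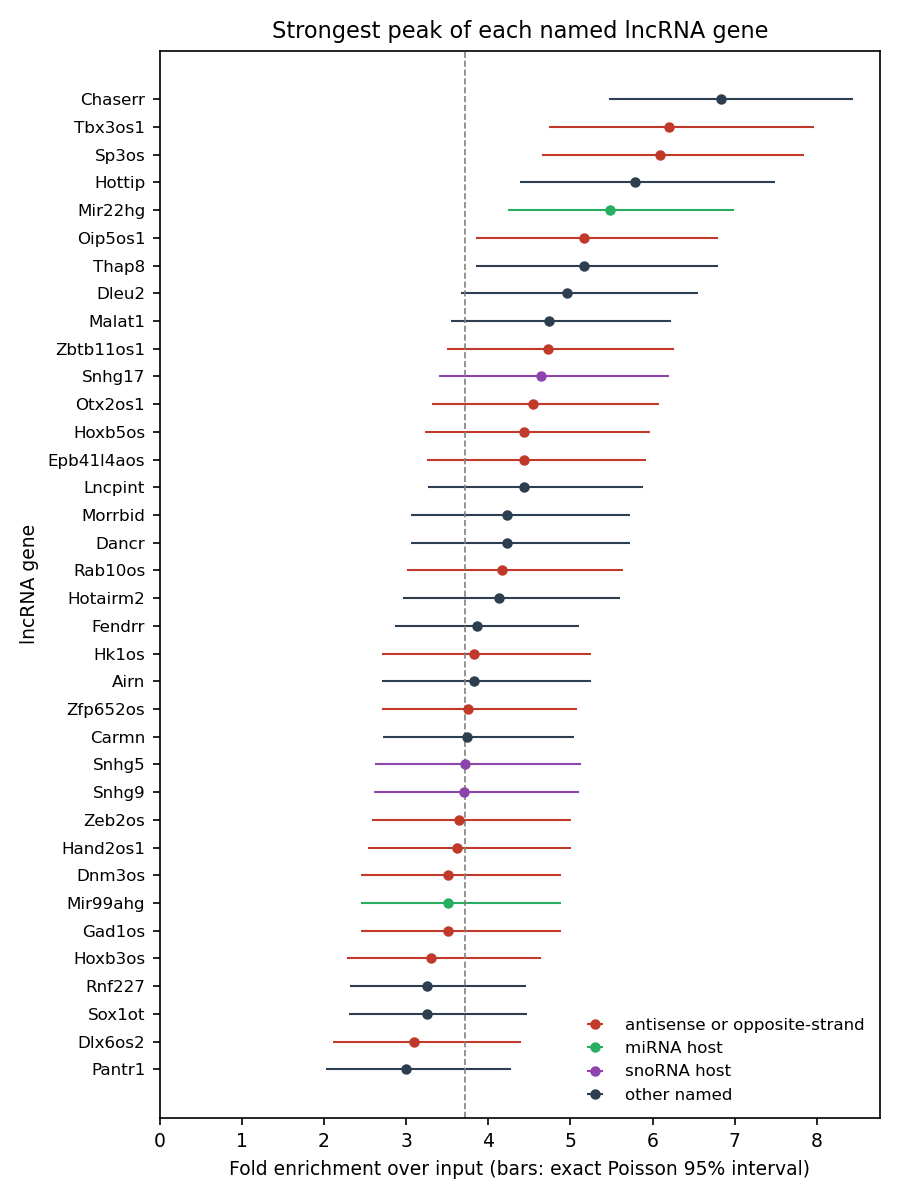
Strongest peak of each of the 36 lncRNA genes with a descriptive name (y axis), as fold enrichment over input (x axis), with exact Poisson 95% intervals as bars, coloured by class, and the median of all 8318 peaks as a dashed line. A peak shared by genes is drawn once, at the nearest, folds run from 2.99 at Pantr1 to 6.84 at Chaserr, and the interval lies wholly above the line for 7 genes. Thap8, whose symbol is that of a protein family, is among the 7.

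LncRNAs that carry microRNAs, or are named for them, were among the genes with a peak. Mir22hg had 5.48 (4.23 to 6.99) at chr11:75461629-75462874, downstream of its start, and 3.82 (2.71 to 5.25) upstream of it. Dleu2, of which the microRNAs restrain cell division, had 4.96 (3.67 to 6.56) at its start. Dnm3os, whose microRNAs are known from skeletal mesenchyme, had 3.51 (2.45 to 4.89) and 2.99 (2.02 to 4.28), both nearer to its far end and inside the dynamin gene Dnm3 that it runs against. Mir99ahg had 3.51 and 3.15 at its start, and Carmn 3.75 and 3.03. The mature microRNAs that lie within Mir22hg, Dleu2 and Dnm3os on the same strand (1 arm of each precursor, from RefSeq) are shown with the seed, bases 2 to 8, in capitals, because the seed sets their targets. Those of Dleu2 share the seed AGCAGCA. Their levels were not measured.
miR-22-3p in Mir22hg: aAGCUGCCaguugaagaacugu
miR-15a-5p in Dleu2: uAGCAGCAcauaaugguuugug
miR-16-5p in Dleu2: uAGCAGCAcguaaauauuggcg
miR-199a-3p in Dnm3os: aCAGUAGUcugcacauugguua
miR-214-3p in Dnm3os: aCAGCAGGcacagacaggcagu

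LncRNAs with snoRNA genes inside them made up 8 of the 323. The number among all lncRNA genes was not counted, so the 8 cannot be read as many or few. SnoRNAs guide chemical changes of ribosomal RNA, and most are cut out of the introns of their host transcripts. Snhg17 had 4.65 (3.40 to 6.20), Snhg5 had 3.72 (2.62 to 5.13) and Snhg9, inside the annotated span of the ribosomal protein gene Rps2, had 3.70 (2.61 to 5.10). Dancr, which holds Snora26, had 4.23 (3.05 to 5.73). Among models without a descriptive name, Gm36220 with Snord104 had 4.37, 2410006H16Rik with 3 snoRNA genes had 4.03 and 2.99, and 1110038B12Rik with Snord52 had 3.45.

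Of a list of 61 widely studied lncRNAs in the table, 17 (27.9%) had such a peak, against 2.54% of all lncRNA genes. The list was drawn up with earlier results of these data known, so the contrast is a description only. A further 7 had a summit only where a coding end was also within 1 kb, and 37 had none at an end, among them H19, Meg3, Xist, Kcnq1ot1, Neat1 and Hotair. Hottip, at the 5′ end of the Hoxa cluster, had folds of 5.78 and 3.34 at its start and of 5.32 and 3.20 at its far end, and the intervals of 5.78 and 5.32 lie above the median of all peaks. Hotairm1 shared a peak of 4.13 with Hotairm2, while Hoxa11os, Hoxaas2 and Hoxaas3 had summits only where a coding end was near. Lncpint, induced by p53, had 4.43 and 4.23 at its start. Fendrr, a lncRNA of the lateral mesoderm, had a peak 1830 bp wide with 3.86 (2.86 to 5.11), with its summit 127 bp downstream of its start and 1403 bp from the forkhead gene Foxf1. Airn, the imprinted antisense transcript of Igf2r, had 3.82 (2.71 to 5.25) at its start, inside Igf2r. Pantr1 had 2.99 (2.02 to 4.28), 1778 bp from the POU factor gene Pou3f3.

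Nearest coding genes included developmental regulators, about as often as for peaks at neither kind of end. The nearest coding end lay at a median of 5682 bp (quartiles 1940 and 21966), within 2 kb for 106 peaks and beyond 100 kb for 22. The 399 peaks had 305 different nearest coding genes, and for 177 peaks (44.4%, 39.4 to 49.4) that gene had a peak at its own end. Among peaks at neither kind of end this share was 44.3% (42.5 to 46.2).

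For 39 of the 399 (9.77%, 7.04 to 13.1) the nearest gene belonged to a listed family of transcription factors or signalling genes. The share was 10.3% (9.25 to 11.5) of peaks at neither kind of end and 3.32% of coding-end peaks. The share at lncRNA ends thus did not stand apart from that of other peaks away from coding ends. These families make up 1.34% of coding genes, which is a share of genes and not of peaks. Several peaks can have the same nearest gene. The 39 peaks had 27 such genes, and the 304 at neither kind of end had 98. The 39 were 13 near Hox genes, 8 near Fox, 6 near Klf, 5 near Pax, 2 near Gata and 1 each near Sox1, Tbx3, Dlx6, Hes1 and Six2, and no peak had a Bmp, Fgf, Wnt, Notch, Smad, Gli, Runx, Msx or Lhx gene nearest.

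Pax9, which tooth development requires, had Gm15524 inside it, with 5.22 (3.93 to 6.82) at chr12:56694816-56695268. The summit lay 192 bp upstream of the lncRNA start and 512 bp from an annotated Pax9 start, and Pax9 had a peak at its own end as well. Gata3 held 9230102O04Rik with 5.47 (4.11 to 7.15). Gm31530, in the neighbourhood of Foxb1, had 5.27, 5.16 and 4.44, and 5730488B01Rik inside Pax5 had 4.13, 4.13 and 2.65. Gm35880 inside Klf7 had 3.82 and 3.10, with annotated Klf7 starts 132 and 528 bp away. Gm30134 and Gm11538 near Hoxb13 shared peaks of 3.92, 3.73 and 3.20. Of the other lncRNAs next to Fox genes, 9030622O22Rik had 4.03 near Foxa2, a regulator of endoderm, Gm38485 had 3.83 inside Foxo3 and Gm33655 had 3.41 near Foxd2. Next to Klf genes, which encode GC-box binding factors, Gm35248 had 5.09 inside Klf10, Gm41307 had 3.77, also with Klf10 nearest, and 2410080I02Rik had 3.75 near Klf9. Gm33152 had 3.76 near Pax3, Gm32998 had 4.04 near the Notch target Hes1, and Gm38708 had 3.40 inside Gata2. Next to Hox genes outside the cases above, 5730596B20Rik had 3.67 inside Hoxa3 and Gm38462 had 3.30 near Hoxd8. The interval at Gm35248, 3.79 to 6.70, lies above the median of all peaks. Gm29418 had 4.54, with Six2 nearest at 112007 bp, and Gm40659 had 4.23, with Klf6 nearest at 603188 bp, the largest distance of the 399.

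The limits of the rule lay among ordinary peaks. The 2 members farthest from their lncRNA end were Gm38708 at 994 bp (fold 3.40) and Sox1ot at 993 bp (3.26), and the nearest left out were Gm20652 and Gm15327, both at 1006 bp (3.58 and 3.61). The 2 nearest to a coding end were Gm36220, 1009 bp from Tex2 (4.37), and Gm10516, 1014 bp from Rcor3 (2.65). The nearest left out on that side were Gm31546, 996 bp from Irf2bp2 (3.22), and Gm46817, 995 bp from Tbx15 (3.30). The table lists Thap8 (5.16) and Rnf227 (3.26) as lncRNA, although their symbols are those of protein families, and both were kept. The X chromosome held 2 of the 399.

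The labelled cell type could be compared with peaks at gene ends only, which are not expression and were present at 21.5% of all coding genes, so a list of a few genes without any is no check of that cell type. Of 13 dental mesenchyme markers 8 had a summit within 1 kb of an end, among them Msx1, Msx2, Pax9, Dlx2, Barx1, Twist1 and Vim, and Lhx6, Lhx8, Dlx1, Prrx1 and Runx2 had none. Of the markers of other cell types, Ambn of the enamel epithelium was the 1 of 7 epithelial genes with a summit. None of 5 endothelial, 7 blood and immune and 6 neuron and glia genes had one.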

How the data were processed

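Arid1b ChIP and input, 1 library each, were compared in the deposited narrow peak list. Chromatin was cut by an enzyme, per the labels' protocols. The submitters' processing notes name the build mm10 and, without roles or settings, MACS2 2.1.1, Picard, Bowtie2 2.2.5 and FastQC 0.11.8. Library read numbers are not known here. The authors' values are a fold enrichment over input (a linear ratio), −log10 p-values, −log10 q-values and a score, which was not used. The lowest −log10 p was 5.02.

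The summit, 1-based, was set against gene ends in a RefSeq table of GRCm38.p6. Strand and start sites came from the RefSeq start windows (250 bases before to 50 after a start), which hold 9533 of the 12731 lncRNA and 17491 of the 21896 coding genes and none on chromosome 18. The pileup and expected input level were recovered from fold and p-value, which whole pileups solved within 0.001 in 100% of peaks. Intervals are exact Poisson for a fold, with the expected level held fixed, and exact binomial (Clopper-Pearson, 95%) for a share. They cover counting error only, fragments are not necessarily independent molecules, and peaks and genes are not replicates. Distances and recovery were tested on simulated data.

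Classes came from gene symbols. Named genes were all well-known, antisense and small-RNA-host lncRNAs with a peak, the 10 highest and 3 lowest peaks, lncRNAs with several peaks, those next to listed developmental families, and the peaks at the limits of the rule. Of the lncRNAs with several peaks, those with at least 3 are named, a limit chosen after values were seen, as were the printed windows, the start-site analysis and the motifs. The names of some neighbouring and marker genes are not reported here. The peaks and lists were chosen with earlier results of these data known. Alternatives changed the q-value limit, the lncRNA window, the coding exclusion, the point measured, the input level, merging and the lncRNAs used. Python 3.11.15, pandas 2.3.3 and SciPy 1.17.1 were used.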

Additional observations from a re-analysis of the deposited data

How the results depend on the processing

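With 1 library per group the limits are counting error, an incomplete start-site table and the choice of windows. Of 45 values recomputed under 9 alternatives, 27 stayed within 1.5 times a count or the 95% interval of a median or share, and 18 moved. With a lncRNA window of 500 bp, there were 233 peaks at 215 genes, and with 2 kb there were 644 peaks. With a coding exclusion of 5 kb there were 215 peaks at 174 genes, 42.3% inside a coding gene, with a median distance to a coding end of 19062 bp. Over peaks whose expected input lay at background there were 193 peaks at 172 genes, with a median fold of 3.92 and 45.1% inside a coding gene. Merging peaks within 500 bp, with the strongest of each run kept, left 289 peaks at 280 genes, with a median fold of 3.83. Over lncRNAs with a descriptive name there were 59 peaks at 38 genes, with 33.9% inside a coding gene and a median distance of 7515 bp. Leaving out summits within 1 kb of an annotated coding start, an alternative chosen after seeing the data, gave 35.8% inside a coding gene and a median distance of 7117 bp. The fewer peaks and genes follow from the narrower rules. The longer distance under the 5 kb exclusion also follows from its rule. So does the lower share inside a coding gene once summits near coding starts are left out. Merging kept the strongest peak of each run, which by itself favours a higher median fold. The cause of the other moves was not tested. No paired analysis was possible because each group holds 1 library and the result comes from no test.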

Other observations

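The 691 summits that lay within 1 kb of both a lncRNA end and a coding end, at 583 lncRNA genes, had a median fold of 3.82 (quartiles 3.35 and 4.34). Among lncRNAs with a descriptive name, the highest were at Zfp335os and Zfp335 (6.82, exact Poisson 95% interval 5.28 to 8.66), at Snhg10 and the glutaredoxin gene Glrx5 (6.40, 4.92 to 8.19), at Haglr and Hoxd3 (6.30, 4.83 to 8.08) and at Hoxb3os and Hoxb2 (5.87, 4.53 to 7.48). Tug1, a lncRNA that shares its start region with Morc2a, had 5.16 (3.85 to 6.79). Junos and the AP-1 gene Jun had 4.27 and 3.72, and Gas5, a snoRNA host beside Zbtb37, had 3.96 (2.83 to 5.40). Hoxb3os, Hoxb5os and Hand2os1 had summits in both groups, here at Hoxb2, at Hoxb6 (5.37) and at Hand2 (3.72), and at lncRNA ends away from coding ends as given above.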
